A study of Mus musculus with 2 samples.

Results

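The collagen genes of the mouse colon were described across cell types and across 2 single-nucleus RNA libraries, 1 of wild-type mice and 1 of Pink1 knockout mice. A collagen gene was any gene whose symbol has the form Col, number, a, number, and 39 of the 44 such symbols had at least 20 UMIs over both libraries (a UMI, or unique molecular identifier, marks 1 captured RNA molecule). The feature list held 32285 genes, of which 16941 reached the same minimum. The 5 collagen genes below it were Col2a1 (1 UMI), Col19a1 (1 UMI), Col6a6 (6 UMIs), Col8a2 (8 UMIs) and Col22a1 (10 UMIs), and they are not described further. The 39 genes gave 42178 UMIs over all barcodes and 36384 in the nuclei kept after filtering, 13809 of them wild type and 22575 knockout.

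The study compared the colon of male C57BL/6 mice aged 15 weeks that lack Pink1, a gene for a mitochondrial kinase needed to clear faulty mitochondria, with that of wild-type littermates. Nuclei were stained with SYTOX Green, sorted into methanol, pooled from 3 mice per genotype and sequenced as 3′ tags on the 10x Genomics platform. Each genotype was thus 1 library, and the labels assign the wild-type library to batch 1 and the knockout library to batch 2, so that genotype, library and batch cannot be told apart. No test between genotypes was possible, no p-value is given, and every interval in parentheses is a 95% interval for counting error only. PCR copies are removed by the UMIs, but the variation between mice is not in these intervals.

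The wild-type library held 8924 barcodes with 16997995 UMIs and the knockout library 12230 barcodes with 22446326 UMIs. After filtering and doublet removal, 8256 wild-type and 10966 knockout nuclei remained, with medians of 1624.5 and 1571 UMIs. The barcode lists of the libraries had 28 sequences in common. Pink1 itself had 171 counts in the wild-type library (11.3 CPM, the share of nuclear-encoded UMIs on a scale where 10000 CPM is 1%) and 113 in the knockout library (6.095 CPM), a ratio of 0.537 (0.420 to 0.686). The sources used here do not give which part of Pink1 was deleted, so residual 3′ tags do not check the label. Clusters were named from marker genes, with the collagen genes left out of the genes used to cluster. All 11 fibroblast markers were detected in the fibroblast-like nuclei, at a summed 5699.6 and 5310.3 CPM, and all 9 smooth muscle markers in the smooth muscle-like nuclei, at 7241 and 9403 CPM.

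Collagens are secreted or membrane-bound proteins whose chains wind around each other into a rigid helix. The fibrillar types form the cables that give the gut wall its tensile strength, the type IV chains form the sheet-like network of basement membranes under epithelium and around muscle, vessels and glia, and type VI chains form beaded filaments that link cells to both. Other types sit on the surface of fibrils, cross the plasma membrane, or carry heparan sulfate chains at the border of basement membranes. In the intestine, fibroblasts and smooth muscle are known as the main producers of fibrillar collagen.

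The sequence before the start of a gene is shown for 4 members. Col1a2 and Col3a1 were chosen because they had similar orders over cell types. Col8a1 and Col11a1 were chosen because, among the classes compared, they were highest in an epithelial cluster and in enteric glia-like nuclei. The sequences are RefSeq windows of GRCm38.p6, written 5′ to 3′ on the strand of the gene, and capitals mark matches on either strand to 4 short motifs. These are the CCAAT box, the TATA box core TATAAA, the GC box GGGCGG that Sp1 factors are known to bind, and the AP-1 site TGANTCA. The stretch of Col1a2 is shorter because bases inside annotated GENCODE exons were left out. They are Col1a2 at chr6:4505370-4505492 (plus strand), Col3a1 at chr1:45311288-45311537 (plus strand), Col8a1 at chr16:57754738-57754987 (minus strand) and Col11a1 at chr3:114030290-114030539 (plus strand).
Col1a2: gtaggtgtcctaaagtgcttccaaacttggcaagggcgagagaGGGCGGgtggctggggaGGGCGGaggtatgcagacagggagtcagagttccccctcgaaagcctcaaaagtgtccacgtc
Col3a1: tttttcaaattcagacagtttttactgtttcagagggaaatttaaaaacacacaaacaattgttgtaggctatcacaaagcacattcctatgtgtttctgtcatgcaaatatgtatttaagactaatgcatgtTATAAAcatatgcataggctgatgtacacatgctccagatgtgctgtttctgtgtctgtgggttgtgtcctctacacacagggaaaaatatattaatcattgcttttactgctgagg
Col8a1: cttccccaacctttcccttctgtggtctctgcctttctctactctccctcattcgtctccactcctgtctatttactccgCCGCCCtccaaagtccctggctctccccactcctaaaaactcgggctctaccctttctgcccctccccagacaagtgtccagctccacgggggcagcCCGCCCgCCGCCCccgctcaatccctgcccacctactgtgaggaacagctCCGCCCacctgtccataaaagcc
Col11a1: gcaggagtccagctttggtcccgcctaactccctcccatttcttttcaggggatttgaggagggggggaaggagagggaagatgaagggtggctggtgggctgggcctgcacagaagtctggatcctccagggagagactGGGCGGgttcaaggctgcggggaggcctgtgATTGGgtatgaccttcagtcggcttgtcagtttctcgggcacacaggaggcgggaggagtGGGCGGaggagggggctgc
Col1a2 and Col3a1 had no motif in common in these stretches, 2 matches to GGGCGG in the first and 1 to TATAAA in the second. Col8a1 carried 4 matches to GGGCGG on the opposite strand, and Col11a1 carried 2 to GGGCGG and 1 to CCAAT, the latter on the opposite strand. RefSeq windows were found for 32 of the 39 genes (35 windows). Over the 250 bases before the start, GGGCGG occurred in 20 of the 35 collagen windows (57.1%) and in 32.7% of all 32851 windows, and CCAAT in 13 (37.1%) against 33.8%. TATAAA occurred in 5 (14.3%) against 12.4%, and TGANTCA, whose 2 strands read alike, in 1 (2.86%) against 6.75%. These are letter matches and no record of binding.

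Collagen UMIs were concentrated in the stroma. In fibroblast-like nuclei (394 wild type, 751 knockout) collagen genes made up 1.25% (1.22 to 1.28) of nuclear-encoded UMIs in the wild-type library and 1.32% (1.30 to 1.35) in the knockout library. These nuclei held 59.5% of all collagen UMIs, while they were 4.77% and 6.85% of the kept nuclei. The next classes were enteric glia-like nuclei at 0.593% and 0.579%, cluster 16 at 0.393% and 0.494%, smooth muscle-like nuclei at 0.385% and 0.373%, lymphatic endothelium-like nuclei at 0.174% and 0.166%, and blood endothelium-like nuclei at 0.109% and 0.140%. Cluster 16 is an unnamed group of 89 and 164 nuclei whose leading genes include Sfrp4, Kcnn3 and Rgs5. The epithelium as a whole had 0.0207% and 0.0191%, and macrophage and dendritic-like nuclei 0.0199% and 0.0176%. The epithelium held 13049325 of 15077042 nuclear-encoded UMIs in the wild-type library and 15479613 of 18539112 in the knockout library. A gene at the same level everywhere would thus have most of its UMIs in the epithelium.

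**Figure D1:**
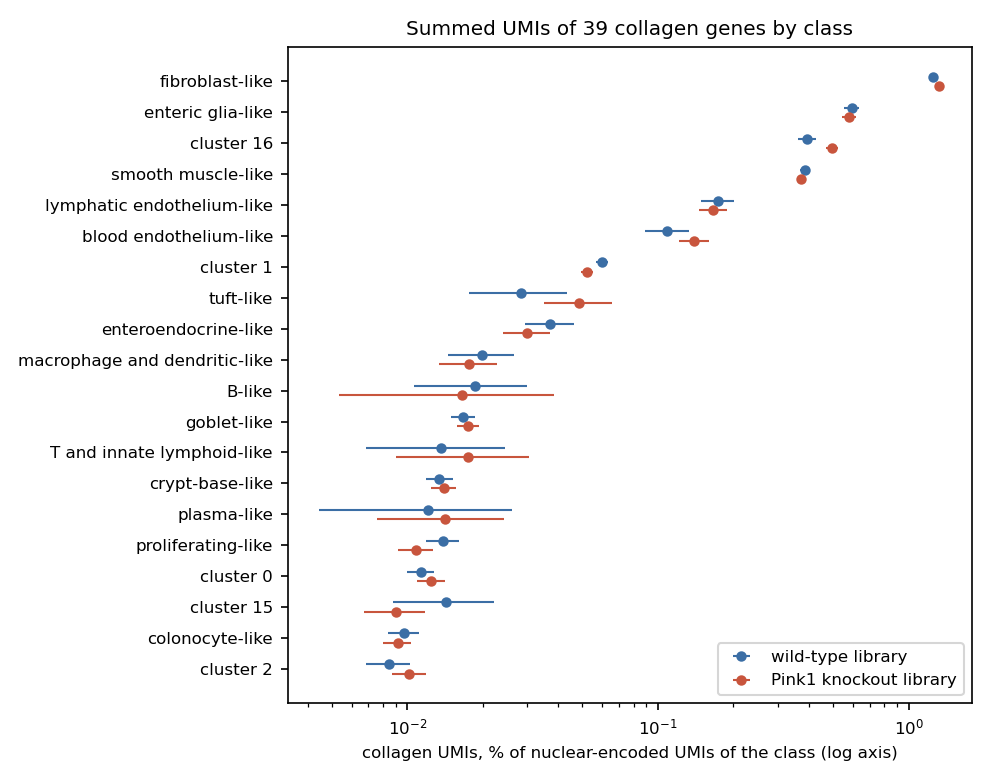
Collagen UMIs as a percentage of nuclear-encoded UMIs (x, log axis) in each class of nuclei (y), with 1 point per library and bars for the 95% counting interval. Fibroblast-like nuclei reach 1.25% and 1.32%, and most epithelial and immune classes lie below 0.05% in both libraries.

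The difference between libraries depended on what was summed. Over all kept nuclei the collagen share was 1.33 times as high in the knockout library (1.30 to 1.36), but within fibroblast-like nuclei the ratio was 1.06 (1.03 to 1.09), within smooth muscle-like nuclei 0.967 (0.911 to 1.03), and within enteric glia-like nuclei 0.977 (0.892 to 1.07). The knockout library also held a larger share of fibroblast-like nuclei, given above, and a smaller share of epithelial nuclei (78.7% against 83.1%), and shares of nuclei can move with sorting and pooling. Without doublet removal the fibroblast-like ratio was 0.999. In cluster 16 the ratio was 1.26 (1.13 to 1.39), and in blood endothelium-like nuclei 1.28 (1.00 to 1.64) on 96 and 217 collagen UMIs. The summed level of 10 goblet markers in blood endothelium-like nuclei was 7046 and 1190.0 CPM, and all 10 were detected. Their part in the endothelial value was not tested. In the same nuclei the 10 endothelial markers summed to 9297 and 10742 CPM.

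Fibrillar collagens led the stroma. Col3a1 (chr1:45311538-45349706), whose chains form type III fibrils, was the highest member per kilobase of gene span. It reached 121 CPM per kb in fibroblast-like nuclei, followed by Col1a1 at 51.5 and Col1a2 at 44.7 CPM per kb. Without division by span Col3a1 was also highest, but Col1a2 (1643 CPM over both libraries) stood above Col1a1 (867 CPM). Over the 39 members the UMI total in kept nuclei and the gene span had a Spearman correlation of -0.189. Col3a1 counted 2659 and 5041 UMIs in fibroblast-like nuclei, or 4364 and 4751 CPM (ratio 1.09, 1.04 to 1.14). In smooth muscle-like nuclei it stood at 1227 and 1060.3 CPM (ratio 0.864, 0.774 to 0.965). The intervals of its ratio thus lay on opposite sides of 1 in the 2 classes, and neither ratio reached 1.5-fold. Under the alternatives the fibroblast-like ratio ranged from 1.03 (without doublet removal, outside its interval) to 1.13. The smooth muscle-like ratio ranged from 0.815 to 0.936. The smooth muscle marker sum moved the other way from Col3a1 in smooth muscle-like nuclei, and its part in the Col3a1 ratio was not tested.

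At least 1 Col3a1 UMI was seen in 91.1% (87.9 to 93.7) of wild-type and 86.8% (84.2 to 89.2) of knockout fibroblast-like nuclei, and with every nucleus thinned to 500 UMIs in 74.1% and 74.2%. In colonocyte- and goblet-like nuclei, which are not known to make it, the shares were 2.97% and 3.13%, or 0.922% and 0.879% thinned. Median depths were 1322 and 1251 UMIs in the fibroblast-like and 1864 and 1707 UMIs in the epithelial nuclei. The source of these few epithelial counts was not tested, and the same holds for the epithelial counts of rare members below. Col3a1 stood at 14.6 and 16.9 CPM in the epithelium as a whole.

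The type I chains were lower than Col3a1 per kilobase. Fibroblast-like nuclei held 81.2% of Col1a1, 74.7% of Col1a2 and 77.3% of Col3a1 UMIs. Col1a1 (chr11:94936224-94953042), the major chain of type I fibrils, was at 817 and 895 CPM in fibroblast-like nuclei (ratio 1.10, 0.982 to 1.22) and 133 and 120 CPM in smooth muscle-like nuclei (ratio 0.905, 0.645 to 1.28). Its partner Col1a2 (chr6:4504814-4541544) was at 1594 and 1671 CPM in fibroblast-like nuclei (ratio 1.05, 0.969 to 1.14) and at 492 and 450.0 CPM in smooth muscle-like nuclei (ratio 0.915, 0.770 to 1.09). There were 0.513 and 0.536 Col1a1 counts per Col1a2 count in fibroblast-like nuclei but 0.271 and 0.268 in smooth muscle-like nuclei. This count ratio differed between the cell types by more than it differed between libraries.

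Type V chains, which sit inside type I fibrils and limit their width, were spread more widely. Col5a1 was at 400.4 and 416.6 CPM in fibroblast-like nuclei (ratio 1.04, 0.888 to 1.22) and at 165 and 130 CPM in smooth muscle-like nuclei (ratio 0.788, 0.576 to 1.08). Col5a2 was at 525 and 531 CPM in fibroblast-like nuclei (ratio 1.01, 0.879 to 1.16). In smooth muscle-like nuclei it stood at 219 and 300.5 CPM, and its ratio of 1.37 (1.08 to 1.76) was the highest of the 16 members measured there. Col5a3 was highest in enteric glia-like nuclei, at 381 and 484 CPM, and stood at 210.1 and 235.6 CPM in fibroblast-like nuclei (ratio 1.12, 0.903 to 1.40) and 40.6 and 43.7 CPM in smooth muscle-like nuclei (ratio 1.08, 0.589 to 2.03). The 3 type V genes therefore did not share 1 class of highest level.

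Col24a1 was highest in fibroblast-like nuclei, and Col27a1 and Col11a1 in enteric glia-like nuclei. Col24a1, a minor fibrillar chain, had 88.0% of its 108 UMIs in fibroblast-like nuclei, with 46 wild-type and 49 knockout counts, or 75.5 and 46.2 CPM. Col27a1, another minor fibrillar chain, was at 464 and 489 CPM in enteric glia-like nuclei, 322 and 386 CPM in fibroblast-like nuclei (ratio 1.20, 1.01 to 1.43) and 131 and 144 CPM in smooth muscle-like nuclei (ratio 1.10, 0.795 to 1.54). Col11a1 (chr3:114030540-114220718), a fibrillar chain best known from cartilage, was detected almost only in enteric glia-like nuclei. It had 113 and 134 counts there (783 and 762 CPM), which is 99.2% of its UMIs, and was seen in 55.6% and 55.1% of these nuclei. Not 1 Col11a1 UMI fell in fibroblast-like, smooth muscle-like or epithelial nuclei. For fibroblast-like nuclei, 0 of 394 and 0 of 751 allow shares of nuclei with a UMI of up to 0.932% and 0.490% by the exact binomial bound, which limits detection at this depth and not expression.

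**Figure D2:**
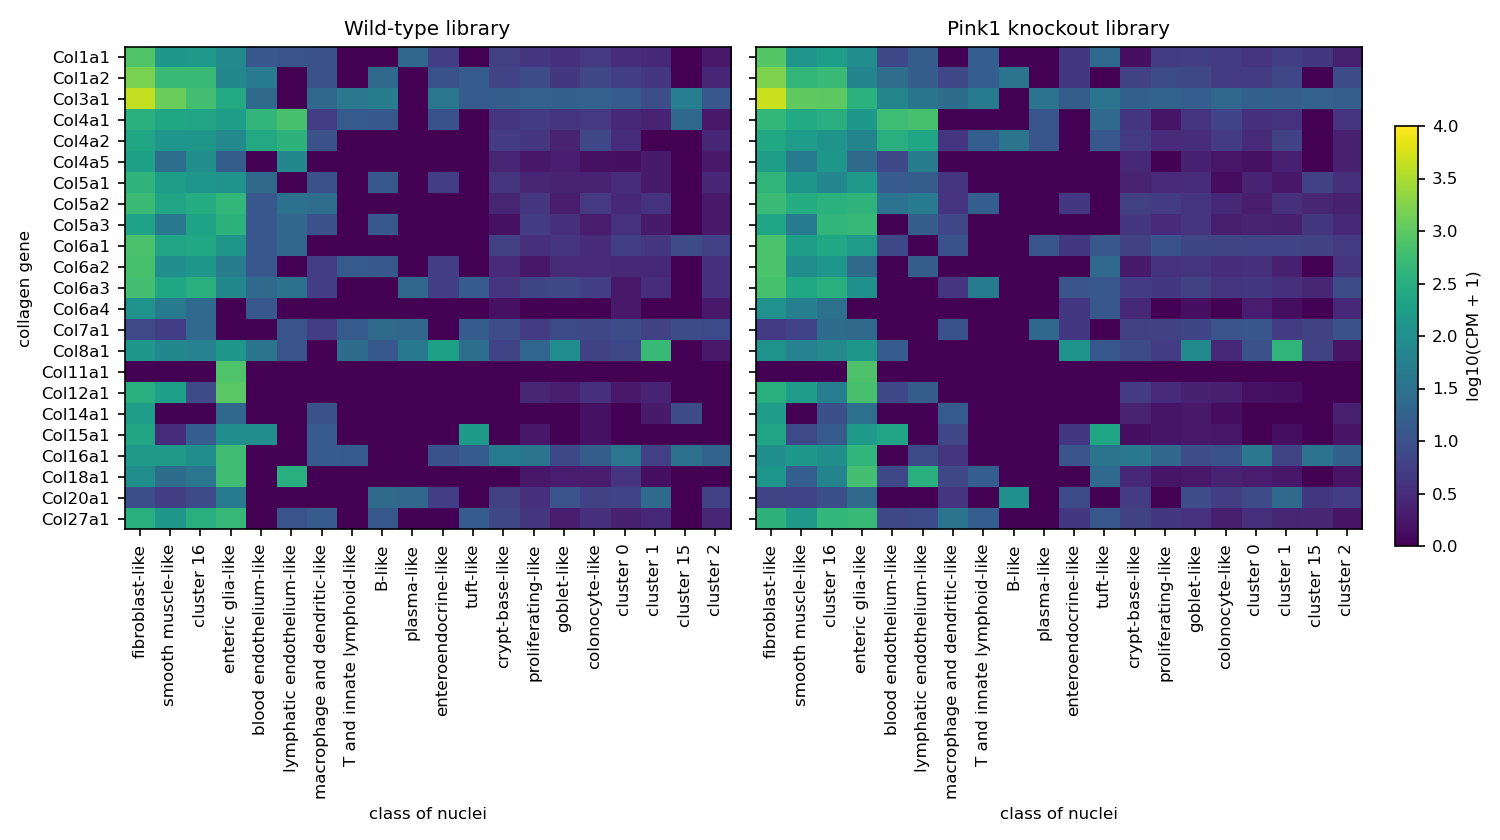
Level of the 23 collagen genes with at least 200 UMIs (rows) in each class of nuclei (columns), as log10 of CPM plus 1, in the wild-type library (left) and the knockout library (right). Both panels show the same blocks, with fibrillar and type VI genes in fibroblast-like nuclei, Col4a1 and Col4a2 in endothelium, Col11a1 in enteric glia-like nuclei and Col8a1 in cluster 1.

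Type IV genes, the basement membrane network, were the main collagens of endothelium. They made up 66.1% of the collagen UMIs of blood endothelium-like nuclei and 61.2% of those of lymphatic endothelium-like nuclei, against 6.998% in fibroblast-like nuclei. Col4a1 (chr8:11198423-11312826, minus strand) was at 683 and 688 CPM in lymphatic endothelium-like nuclei and at 432 and 566 CPM in blood endothelium-like nuclei. It was at 339.7 and 437 CPM in fibroblast-like nuclei (ratio 1.29, 1.09 to 1.52) and at 232 and 277 CPM in smooth muscle-like nuclei (ratio 1.19, 0.936 to 1.52). Fibroblast-like nuclei, being more numerous, still held 44.0% of all Col4a1 UMIs.

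Col4a2 (chr8:11312805-11449287, plus strand), the partner chain of Col4a1 in most basement membranes, lies head to head with it, and the annotated first exons overlap. It was at 261 and 322 CPM in blood endothelium-like, 382 and 232 CPM in lymphatic endothelium-like, 222 and 243 CPM in fibroblast-like (ratio 1.10, 0.888 to 1.36) and 124 and 154 CPM in smooth muscle-like nuclei (ratio 1.24, 0.891 to 1.74). No label or header states whether reads were counted by strand, so reads in the overlap cannot be assigned. Over 20 classes the levels of the pair had a Spearman correlation of 0.836, and Col4a1 had 1.53 to 2.97 counts per Col4a2 count in the fibroblast-like, smooth muscle-like, endothelial and cluster 16 nuclei of either library.

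The other type IV genes had different homes. Col4a5 was at 194 and 169 CPM in fibroblast-like nuclei (ratio 0.871, 0.687 to 1.11), which held 68.6% of its UMIs. Its neighbour on the X chromosome, Col4a6, had 77.9% of 172 UMIs there, at 85.3 and 77.3 CPM. Col4a4 had 124 UMIs, most of them in no single class, with 32.3% in enteric glia-like nuclei (10 and 30 counts, 69.3 and 171 CPM). Over all kept nuclei Col4a4 had 32 and 92 counts, a ratio of 2.34 (1.55 to 3.61). This was the highest such ratio of the 39 members, followed by Col9a1 (2.24, on 4 and 11 counts) and Col23a1 (1.99). The summed collagen share had a ratio of 1.33 over the same nuclei. The part of class make-up in the Col4a4 ratio was not tested, and the share of all genes as far apart was not counted. Col4a3 had 26 UMIs, of which 65.4% lay in the epithelium, below the epithelial part of all nuclear-encoded UMIs. Across the 20 classes Col4a5 and Col4a6 had a Spearman correlation of 0.522, and Col4a3 and Col4a4 one of -0.0150.

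The type VI chains followed the fibrillar pattern. Col6a1 was at 712 and 729 CPM in fibroblast-like nuclei (ratio 1.02, 0.908 to 1.15) and 212 and 172 CPM in smooth muscle-like nuclei (ratio 0.812, 0.618 to 1.07). Col6a2 was at 686 and 723 CPM in fibroblast-like nuclei (ratio 1.05, 0.934 to 1.19) and 97.0 and 91.3 CPM in smooth muscle-like nuclei (ratio 0.942, 0.634 to 1.41). Col6a3, the longest chain of the filament, was at 647 and 694 CPM in fibroblast-like (ratio 1.07, 0.948 to 1.22) and 226 and 244 CPM in smooth muscle-like nuclei (ratio 1.08, 0.842 to 1.39). Col6a1 and Col6a2 were counted about equally in fibroblast-like nuclei, at 1.04 and 1.01 Col6a1 counts per Col6a2 count, whereas smooth muscle-like nuclei had 2.19 and 1.88.

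The alternative type VI chains were rarer. Col6a4 was at 112 and 105 CPM in fibroblast-like nuclei (ratio 0.938, 0.687 to 1.29) and 42.8 and 51.6 CPM in smooth muscle-like nuclei (ratio 1.20, 0.680 to 2.21). Col6a5 had 131 UMIs, 58.8% in fibroblast-like nuclei (33 and 44 counts) and 31.3% in enteroendocrine-like nuclei, the hormone-secreting cells of the epithelium. All 18 wild-type and 23 knockout Col6a5 counts of the enteroendocrine-like class lay in cluster 22, led by Chgb, Tph1 and Chga, at 139 and 133 CPM. A Col6a5 UMI was seen in 11.1% and 9.72% of enteroendocrine-like nuclei against 0.0512% and 0.0382% of colonocyte- and goblet-like nuclei, and after thinning in 3.03% and 2.08% against 0 and 0. Median depths were 2104 and 1826 UMIs in the former and 1864 and 1707 UMIs in the latter.

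**Figure D3:**
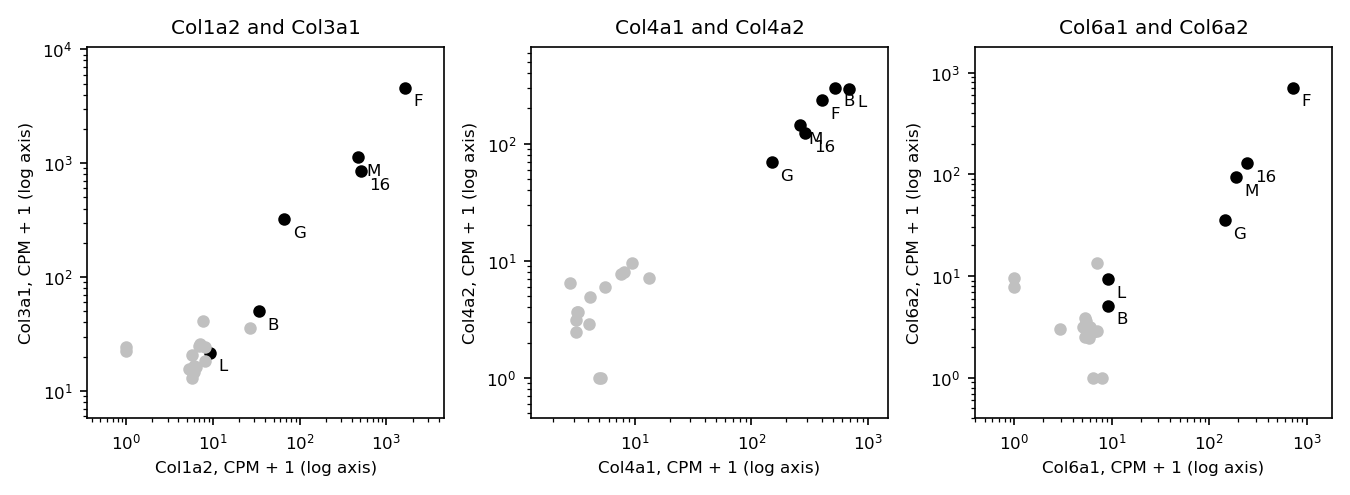
Level of the first gene of a pair (x) against the second (y) over 20 classes, as CPM plus 1 of both libraries together on log axes, with 1 point per class. Letters at the lower right of a point name fibroblast-like (F), smooth muscle-like (M), cluster 16 (16), enteric glia-like (G), blood endothelium-like (B) and lymphatic endothelium-like nuclei (L). Col1a2 and Col3a1 (Spearman 0.768), Col4a1 and Col4a2 (0.836) and Col6a1 and Col6a2 (0.428) are low together in most epithelial and immune classes, where counts are few.

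Rank correlations of the other partner pairs over the same 20 classes were 0.635 for Col1a1 and Col1a2, 0.649 for Col5a1 and Col5a2, 0.619 for Col6a1 and Col6a3 and 0.720 for Col6a2 and Col6a3. The classes share 2 libraries and their free RNA, so these values describe the data and carry no test.

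Of the collagens that decorate fibrils, Col12a1 and Col16a1 were highest in enteric glia-like and Col14a1 in fibroblast-like nuclei. Col12a1, which bridges fibrils to other matrix, was at 963 and 683 CPM in enteric glia-like, 333 and 322 CPM in fibroblast-like (ratio 0.968, 0.811 to 1.16) and 180.4 and 158 CPM in smooth muscle-like nuclei (ratio 0.873, 0.652 to 1.17). Col14a1, a related fibril-surface collagen, was nearly limited to fibroblast-like nuclei, with 90.3% of its 300 UMIs there, at 174 and 156 CPM (ratio 0.894, 0.696 to 1.15). That share was 57.2% without doublet removal, which also lowered the ratio to 0.635, and the ratio was 0.577 when the libraries were clustered separately. Col16a1, a further fibril-associated chain, was at 582 and 421 CPM in enteric glia-like nuclei. In fibroblast-like nuclei it stood at 139.5 and 96.1 CPM (ratio 0.689, 0.512 to 0.930), and this ratio was 0.936 after thinning to 500 UMIs. In smooth muscle-like nuclei it was at 139.8 and 132 CPM (ratio 0.947, 0.683 to 1.32).

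The epithelium held 51.4% of the Col16a1 UMIs, below its part of all nuclear-encoded UMIs. Col16a1 stood at 43.4 and 38.8 CPM in crypt-base-like nuclei and at 36.1 and 39.4 CPM in cluster 0, an unnamed epithelial cluster led by Gk and Gsdmc3, against 6.48 and 7.68 CPM in goblet-like nuclei. A Col16a1 UMI was seen in 6.63% (5.28 to 8.21) and 5.46% (4.32 to 6.79) of crypt-base-like nuclei and in 1.90% and 1.49% of colonocyte- and goblet-like nuclei, whose median depths were above the 1484 and 1465 UMIs of the crypt-base-like nuclei. In proliferating nuclei its ratio was 0.580 (0.345 to 0.960), on 41 and 28 counts.

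Rare members of this group were few in UMIs. Col9a2 had 89.4% of 47 UMIs in enteric glia-like nuclei (25 and 17 counts). Col9a1 had 12 of its 15 UMIs in cluster 16. Col9a3, which overlaps Tcfl5, had 38 UMIs with 68.4% in the epithelium, below the epithelial part of all nuclear-encoded UMIs. Col20a1, at 266 UMIs, had 86.1% in the epithelium, near that part, and 39.5% in cluster 1 (23.2 and 22.8 CPM). It overlaps the transcript 9230112E08Rik on the same strand, so its counts are uncertain. Its level was nominally highest in B-like nuclei, on 2 and 3 counts, of which 1 nucleus gave 40%.

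Most short-chain collagen UMIs came from 1 epithelial cluster. Col8a1 (chr16:57624258-57754737) is a short-chain network collagen best known from vessel walls and the cornea. It had 88.2% of its 2979 UMIs in the epithelium, little above the epithelial part of all nuclear-encoded UMIs, and 70.4% in cluster 1. A fibroblast-like cluster described below had a nominally higher CPM of Col8a1 than cluster 1 in both libraries. Cluster 1 held 976 and 1220 nuclei and had Plet1, Meg3, Rian, Mirg, Dixdc1 and Col8a1 itself among its leading genes. Col8a1 counted 1093 wild-type and 1004 knockout UMIs there, or 517 and 410 CPM, a ratio of 0.793 (0.727 to 0.864). Short-chain genes, nearly all Col8a1, were 82.5% of the collagen UMIs of this cluster, and the nucleus with most Col8a1 gave 2.48% of its counts there.

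A Col8a1 UMI was seen in 43.0% (39.9 to 46.2) of wild-type and 29.1% (26.6 to 31.7) of knockout nuclei of cluster 1, and in 18.03% and 12.87% after thinning. Crypt-base-like nuclei, another epithelial class of the same libraries, had 0.935% and 1.02%, or 0.170% and 0.218% thinned. Colonocyte- and goblet-like nuclei together had 5.48% and 3.78%, or 1.28% and 1.76% thinned. Median depths in cluster 1 were 2061 and 1885 UMIs. Muc2, the main gel-forming mucin of goblet cells, was at 20022 and 18754 CPM in cluster 1, against 11931 and 11979 CPM in goblet-like nuclei. Between the libraries the summed level in cluster 1 went from 1118 to 2136 CPM for 6 general epithelial markers and from 126 to 246 CPM for 10 colonocyte markers, while 10 goblet markers summed to 22207 and 21207 CPM. The part of these markers in the Col8a1 ratio was not tested. Col8a1 was also at 184 and 115 CPM in enteroendocrine-like nuclei, 132 and 131 CPM in enteric glia-like nuclei, 135 and 108 CPM in fibroblast-like nuclei (ratio 0.805, 0.602 to 1.08), 85.7 and 79.5 CPM in goblet-like nuclei (ratio 0.927, 0.747 to 1.15) and 69.9 and 58.2 CPM in smooth muscle-like nuclei (ratio 0.833, 0.514 to 1.36). It was at 5.07 and 1.90 CPM in colonocyte-like nuclei. Its ratio was below 1 in the 4 classes with a ratio (cluster 1, goblet-like, fibroblast-like and smooth muscle-like nuclei), with an interval below 1 in cluster 1 alone. The goblet-like value joined clusters that differed, with ratios of 1.37 (1.06 to 1.77) in cluster 4 and 0.423 (0.274 to 0.645) in cluster 9. In fibroblast-like nuclei the ratio ranged from 0.575 with the libraries clustered separately to 1.19 without doublet removal, which also gave 1.33 in smooth muscle-like nuclei. Separate clustering gave 1.44 in goblet-like nuclei, and in cluster 1 the ratio stayed between 0.740 and 0.807 under the 12 alternatives. Col10a1, the other short-chain member, had 44 UMIs, 95.5% of them epithelial, and overlaps Nt5dc1 on the opposite strand.

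The multiplexins, which carry heparan or chondroitin sulfate chains and lie at the border of basement membranes, split between vessel types. Col15a1 was at 231 and 214 CPM in fibroblast-like nuclei (ratio 0.925, 0.746 to 1.15). In blood endothelium-like nuclei it had 8 and 33 counts (90.9 and 212 CPM), and in lymphatic endothelium-like nuclei 0 UMIs in either library. Col18a1, the source of endostatin, showed the opposite order, with 0 and 1 counts in blood endothelium-like and 32 and 49 counts (321 and 344 CPM) in lymphatic endothelium-like nuclei. It was highest in enteric glia-like nuclei, at 596 and 643 CPM, and stood at 96.8 and 124 CPM in fibroblast-like nuclei (ratio 1.28, 0.938 to 1.78). Tuft-like nuclei, the chemosensory cells of the epithelium, had 11 and 20 Col15a1 counts (149 and 226 CPM), and a UMI was seen in 21.1% (9.55 to 37.3) and 26.5% (14.9 to 41.1) of only 38 and 49 nuclei, against 0.0512% and 0.153% of colonocyte- and goblet-like nuclei. After thinning these shares in tuft-like nuclei were 0% and 14.3%.

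Membrane-spanning collagens were all below 200 UMIs. Col23a1 had 148 UMIs, 36.5% in cluster 16 (16 and 38 counts) and 25.7% in lymphatic endothelium-like nuclei (14 and 24 counts). Col13a1 had 43 UMIs, 37.2% in fibroblast-like and 34.9% in blood endothelium-like nuclei and 0 in the epithelium. Col25a1 (87 UMIs) and Col17a1 (29 UMIs) had 73.6% and 82.8% of their UMIs in the epithelium, both below the epithelial part of all nuclear-encoded UMIs. When cluster 16 was split further, all 16 and 38 of its Col23a1 counts fell in a part of 53 and 110 nuclei with high Kit (1245 CPM) and Ano1 (1401 CPM), which are markers of the interstitial cells of Cajal. In the other part, of 36 and 54 nuclei, Kit and Ano1 were at 82.9 and 116 CPM. Pericyte markers were also higher in the first part for Rgs5 (507 against 99.5 CPM), Pdgfrb (226 against 74.6 CPM), Notch3 (117 CPM against 0), Cspg4 (113 against 49.7 CPM) and Kcnj8 (58.6 against 8.29 CPM), but not for Abcc9 (242 against 390 CPM).

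Col7a1, which builds the anchoring fibrils under stratified epithelium, had 231 UMIs and nearly the same level in the epithelium (6.36 and 6.85 CPM) as in all other nuclei (9.37 and 7.52 CPM). Among the 20 classes with at least 20 nuclei in each library, which leave out 16 and 4 enteric neuron-like nuclei, its nominal highest was cluster 16, on 3 and 6 counts. Among the other rare members, Col11a2 had 73.9% of 153 UMIs in the epithelium, below the epithelial part of all nuclear-encoded UMIs. Col28a1 had 38.2% of 89 UMIs in cluster 1 and 31.5% in enteric glia-like nuclei (83.2 and 91.0 CPM). Col26a1 had 9 of 17 UMIs in enteric glia-like nuclei but overlaps Gm20485 on the same strand.

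Enteric glia were the class of highest level for 10 of the 39 members and fibroblast-like nuclei for 14. Glial collagen was 46.4% fibrillar and 25.5% fibril-associated by UMIs, against 67.2% and 4.70% in fibroblast-like nuclei. The glial values rest on 72 and 107 nuclei. Fibroblast markers (7 of 11 detected) summed to 471 and 478 CPM in enteric glia-like nuclei, against 5699.6 and 5310.3 CPM in fibroblast-like nuclei. Of these markers, Pdgfra and Dcn had 1 wild-type and 0 knockout counts each in enteric glia-like nuclei (6.93 and 0 CPM). Lum had 0 counts in both libraries there, so nearly all of the sum came from other markers of the list. The part of fibroblast RNA in the glial fibrillar values was not tested. Col11a1 itself was at 0 in fibroblast-like nuclei.

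The fibroblast-like class held 2 clusters with different collagen make-up. Cluster 6 (346 and 658 nuclei), led by Pappa, Nrg1, Adamdec1, Bmp4 and Pdgfra, and cluster 23 (48 and 93 nuclei), led by Gfpt2, Pi16, Mfap5 and Col14a1, had nearly the same Col3a1 level, at 4312 and 4785 CPM and at 4802 and 4439 CPM. Col14a1 was at 138 and 102 CPM in cluster 6 and 483 and 656 CPM in cluster 23, and Col8a1 at 64.2 and 68.8 CPM against 733 and 480.1 CPM. Col5a3 was also higher in cluster 23, at 437 and 421 CPM against 183 and 216 CPM. The reverse held for Col12a1, at 367 and 351 CPM in cluster 6 and 46.8 and 49.0 CPM in cluster 23, for Col4a5 (215 and 183 CPM against 15.6 and 39.2 CPM) and for Col27a1 (356 and 420.3 CPM against 31.2 and 68.6 CPM). The intervals of the 2 clusters did not overlap in either library for these 6 genes. They are part of 19 collagen genes with at least 100 counts over both clusters. The clusters were formed by the expression of other genes, and how many of all genes differ as much was not counted.

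**Figure D4:**
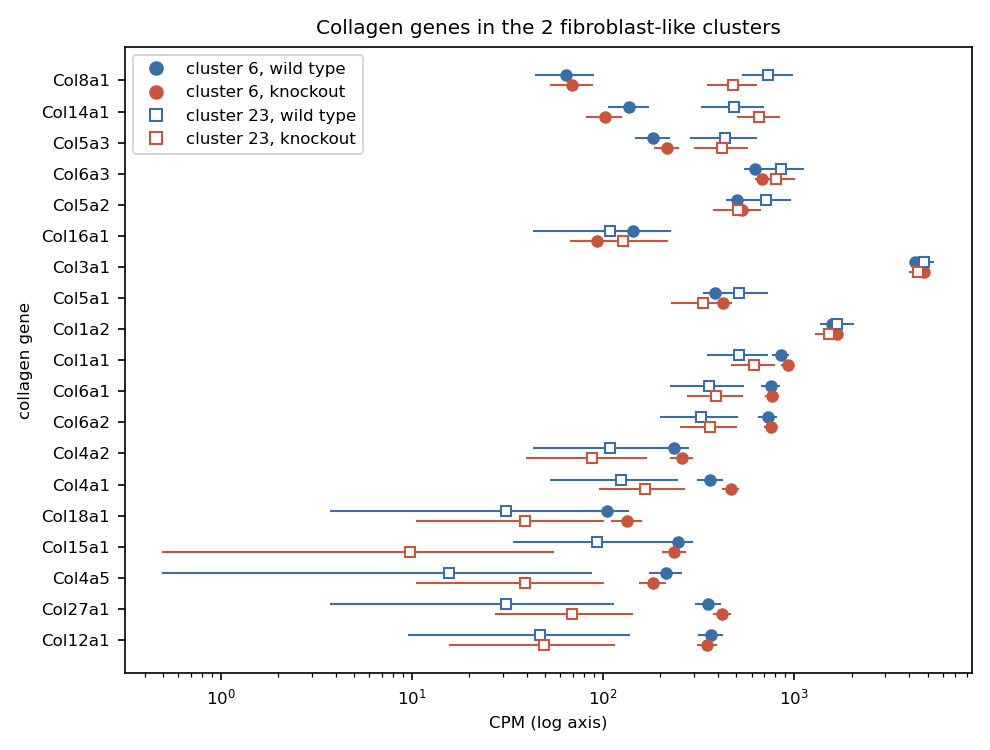
CPM (x, log axis) of the collagen genes with at least 100 counts over both fibroblast-like clusters (y), for cluster 6 (filled circles) and cluster 23 (open squares) in the wild-type (blue) and knockout library (red), with 95% counting intervals drawn from 0.5 CPM upwards. Col8a1 and Col14a1 at the top are higher in cluster 23, and Col4a5, Col27a1 and Col12a1 at the bottom are higher in cluster 6, in both libraries.

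Smooth muscle-like nuclei also fell into 2 clusters. Col3a1 was at 2300.5 and 2044 CPM in cluster 19 (65 and 143 nuclei, led by Hhip and P2ry14) and at 1026 and 839.6 CPM in cluster 12 (230 and 384 nuclei, led by Carmn and Myh11). Col5a2 was at 286 and 549 CPM in cluster 19 and at 206 and 245 CPM in cluster 12.

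Ratios of single collagen genes were taken mainly in the 2 classes with most of them. In fibroblast-like nuclei 23 members had the 50 counts needed for a ratio, and 13 of these ratios were above 1. None was at least 1.5-fold higher in the knockout library and 1, Col24a1, was at least 1.5-fold lower, at 0.612 (0.401 to 0.936). Of all 5695 genes measured in these nuclei, 8.08% were at least 1.5-fold higher and 5.95% at least 1.5-fold lower, so a count of 0 and of 1 among 23 is near that background. The median log2 ratio was 0.03 for the collagen genes and 0.0025 for all genes. Col24a1 was no longer called after thinning or without doublet removal, and separate clustering of the libraries called Col14a1 and Col8a1 in its place.

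In the epithelium few members had 50 counts. In cluster 1 Col3a1 was past 1.5-fold, at 1.93 (1.06 to 3.64, on 17 and 38 counts), and at 1.32 without doublet removal. It was 1 of 3 members measured there, beside 473 of 8570 genes at least 1.5-fold higher. In colonocyte-like nuclei Col16a1 stood at 0.642 (0.356 to 1.15). It was 1 of 2 members measured there, beside 828 of 7762 genes at least 1.5-fold lower. Col16a1 in proliferating nuclei, given above, was the only member measured there, beside 422 of 8045 genes at least 1.5-fold lower.

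In smooth muscle-like nuclei 16 members were measured, and none was 1.5-fold apart in either direction, against 8.86% higher and 5.64% lower among 3849 genes. The median log2 ratio was -0.09 for the collagen genes and 0.03 for all genes. Blood endothelium-like nuclei numbered 74 in the wild-type library, under the 100 set for ratios of single genes, so only levels of single genes are given for them, as for enteric glia-like nuclei and cluster 16.

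**Figure D5:**
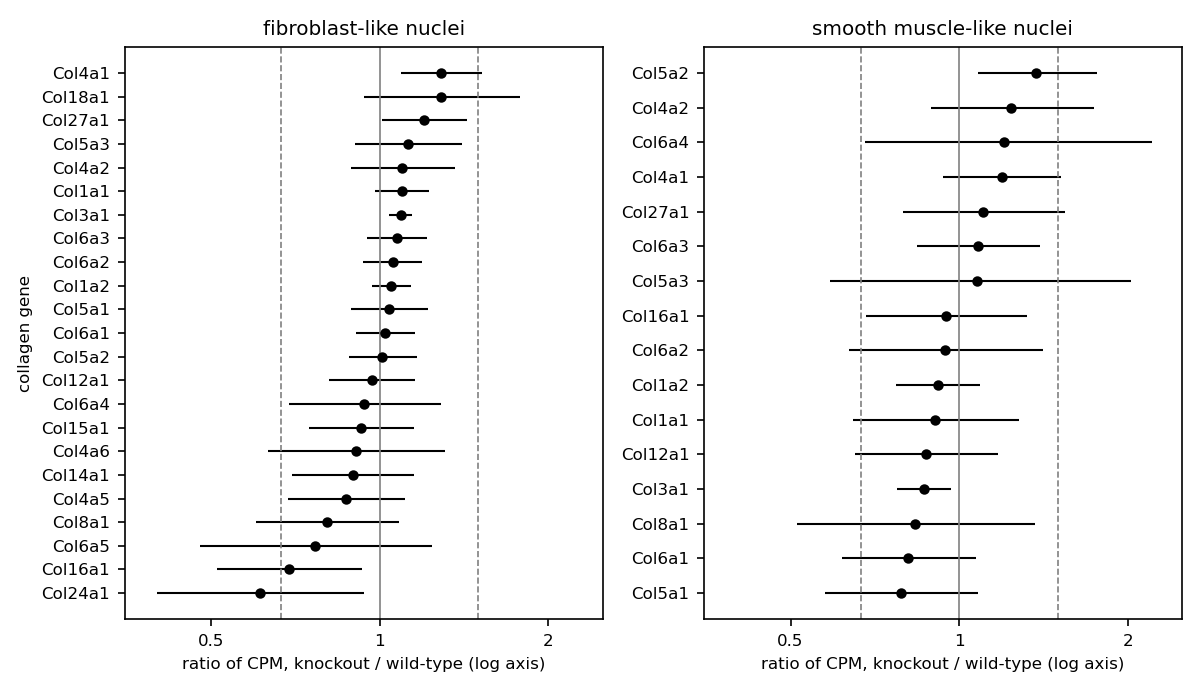
Ratio of CPM, knockout over wild-type library (x, log axis), for each collagen gene with at least 50 counts (y) in fibroblast-like (left) and smooth muscle-like nuclei (right), with 95% counting intervals. Solid lines mark 1 and dashed lines 1.5-fold in either direction, and Col24a1 at 0.612 is the only point beyond a dashed line.

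Genes that hydroxylate, fold and export collagen chains were also measured in fibroblast-like nuclei. Of 9 measured genes of chain hydroxylation and 8 of chaperones and export, none was 1.5-fold apart in either direction, with median log2 ratios of 0.08 and -0.03. The same held for 9 basement membrane partners such as laminins (median 0.12) and 4 collagen receptors (median -0.01). Among all genes of these nuclei 8.08% were at least 1.5-fold higher and 5.95% lower, so counts of 0 in such short lists are near that background. The median for all genes, given above, was 0.0025.

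The other lists, on cross-linking, binding, breakdown and TGF beta, held genes at least 1.5-fold apart in fibroblast-like nuclei. Their counts stand beside 8.08% higher and 5.95% lower among all genes of these nuclei. Of 9 measured genes of propeptide cleavage and cross-linking, 2 were 1.5-fold higher and 1 lower in the knockout library. Lox, the enzyme that starts collagen cross-links, was at 37.7 and 83.9 CPM (ratio 2.22, 1.39 to 3.68), Tgm2, a transglutaminase, at 128 and 202 CPM (ratio 1.58, 1.21 to 2.07), and Loxl1, an enzyme related to Lox, at 133 and 77.3 CPM (ratio 0.581, 0.422 to 0.8004). Of 12 collagen-binding matrix genes, 1 was higher and 1 lower, which is near that background, and the median log2 ratio was -0.03. Thbs1, a matrix protein that activates TGF beta, was at 83.7 and 359 CPM (ratio 4.29, 3.20 to 5.87), and Lum, a proteoglycan that spaces fibrils, at 222 and 132 CPM (ratio 0.596, 0.467 to 0.760).

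Of 9 genes of collagen breakdown, 2 were higher and none lower, and the median log2 ratio was 0.34. This list also holds the protease inhibitors Timp2 and Timp3. Adamts1, a secreted protease of proteoglycans, was at 70.6 and 438 CPM (ratio 6.21, 4.54 to 8.70), and Fap, a protease that acts on collagen fragments, at 29.5 and 54.7 CPM (ratio 1.85, 1.07 to 3.34). Of 14 TGF beta signals and targets, 4 were higher and none lower, with a median of 0.33. Ccn2, a matrix-associated growth factor, was at 339.7 and 737 CPM (ratio 2.17, 1.86 to 2.54). The fibrillar collagens themselves had ratios of 1.10 (Col1a1), 1.05 (Col1a2) and 1.09 (Col3a1) in the same nuclei. Any part of TGF beta in the values of this paragraph was not tested.

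In smooth muscle-like nuclei the same lists were measured on fewer genes, beside 8.86% higher and 5.64% lower among all genes, and the genes named here were chosen after their values were seen. None of 4 hydroxylation genes was 1.5-fold apart, while 2 of 5 chaperone and export genes were higher: Serpinh1, the collagen chaperone HSP47, at 65.4 and 103 CPM (ratio 1.58, 1.02 to 2.51) and Sec24d, a coat protein of the export vesicles, at 33.8 and 64.9 CPM (ratio 1.92, 1.06 to 3.68). Of 4 cross-linking genes 2 were higher (Tgm2, ratio 1.64, and Pxdn, which cross-links type IV collagen, ratio 1.54). Thbs1 was the only one of 8 binding genes to be higher (ratio 1.56) and Nid1, a linker of laminin and type IV collagen, of 8 basement membrane partners (ratio 1.58). Adamts1 was at 54.1 and 823 CPM (ratio 15.2, 10.1 to 23.9), and Timp2, an inhibitor of matrix proteases, at 99.2 and 59.6 CPM (ratio 0.600, 0.387 to 0.931). Ccn2 was at 169 and 91.3 CPM (ratio 0.540, 0.384 to 0.759). Of 4 receptors, Itga10 was lower at 0.630 (0.360 to 1.11), an interval that includes 1.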

How the data were processed

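Single-nucleus libraries of colon from wild-type and Pink1 knockout mice were deposited as matrices of UMI counts. Per the file headers the authors used Cell Ranger 6.1.2, and the submitters' processing notes name mm10 (GRCm38). No source used here gives the annotation release, intron counting, strand use or doublet removal. Barcodes with at least 500 UMIs, 300 genes and at most 10% mitochondrial UMIs were kept, and the highest Scrublet scores (0.8% per 1000 barcodes) were removed as doublets (632 wild type, 1180 knockout). Nuclei of both libraries were clustered together with scanpy 1.11.5 and leidenalg 0.10.2 (2000 variable genes without collagen genes, 30 components, 20 neighbours, resolution 1), and the 29 clusters were named from marker lists. In the unnamed cluster 16 a further clustering at resolution 2 gave 2 parts. UMI counts were summed per class and library and given as CPM over nuclear-encoded genes. Intervals were Clopper-Pearson for shares, exact Poisson for counts and conditional binomial for ratios, at 95%. Ratios of single genes needed 50 counts and 100 nuclei per library (summed shares had no such minimum), and a difference was called at 1.5-fold. Every collagen gene is accounted for, those with 200 UMIs in full. From each list the 2 highest and 2 lowest called genes by the interval bound nearest to 1 in fibroblast-like nuclei are named, except 1 that is not reported here. Spans and overlaps came from the GENCODE positions matched by gene ID, and promoters from RefSeq. The script was tested on simulated counts. The collagen genes and all lists were chosen with earlier results of these data known. Alternatives covered filters, doublets, resolution, joint clustering, thinning, free RNA and scaling.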

Additional observations from a re-analysis of the deposited data

Results flagged for a closer look

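Ccn2, a matrix-associated growth factor and known target of TGF beta, moved in opposite directions in the classes that hold most collagen. Its ratio of knockout over wild-type library was 2.17 (1.86 to 2.54) in fibroblast-like nuclei, on 207 and 782 counts, and 0.540 (0.384 to 0.759) in smooth muscle-like nuclei, on 75 and 69 counts. With 1 library per genotype the difference between the classes was not tested.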

How the results depend on the processing

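With 1 library per genotype, counting error is the only error known, and genotype cannot be told apart from library or batch. Free RNA and the rebuilt class names limit values in small classes. The fibroblast-like ratio of the summed collagen share, 1.06, was 1.03 after thinning to 500 UMIs, 1.09 with the stricter filter, 0.999 without doublet removal and 1.09 with Scrublet's own threshold. The smooth muscle-like ratio ranged from 0.941 to 0.978 and the blood endothelium-like ratio from 1.15 to 1.54. In fibroblast-like nuclei, thinning gave 1 higher (Col6a4, 1.53) and 0 lower collagen genes, a 2-fold threshold 0 lower, and separate clustering 2 lower (Col14a1 and Col8a1). In smooth muscle-like nuclei, 1 gene was higher after thinning (Col5a2, 1.76), 1 with a minimum of 20 counts (Col4a5, 1.61) and 1 without doublet removal (Col4a5, 1.62), and 1 was lower with a minimum of 20 counts (Col18a1, 0.587). The 46 gene ratios gave 531 values under the alternatives, of which 518 stayed within the counting interval of the main value. The 23 fibroblast-like shares of a gene's UMIs gave 230 values, of which 186 did so. The alternatives share nuclei, so these values are not independent. Why the remaining values moved was not tested. No paired analysis was possible because the 2 groups hold 1 library each and share fewer than 2 replicate numbers.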
